A study of Arabidopsis thaliana with 27 samples.

Results

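Leaf transcript levels were compared between 24 h and 9 h after infiltration with hrcC, a strain of Pseudomonas syringae pv. tomato DC3000 that lacks a working type III secretion system. The comparison used 12 of the 27 arrays of the series: 4 arrays labelled hrcC 24 h, all from set 3, and 8 arrays labelled hrcC 9 h, from sets 1 and 2. They were chosen by the set number, strain and time in their titles, and they cover 4 genotypes of Arabidopsis thaliana. Each genotype had 1 array at 24 h and 2 at 9 h. Beside the wild type, Col-0, these were pad4-1, a double mutant (cbp60g,cbp60h) and a triple mutant (cbp60g,cbp60h,pad4). The plants were 4 weeks old and grew with a day length of 12 h, and every group received bacteria at the same labelled dose. Per the labels, leaves of several plants were pooled for each sample. The 3 arrays of the cbp60h single mutant at 9 h were left out of the comparison. All 181 probes with a single gene name were followed, out of 576.

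Bacteria without type III secretion still carry the surface patterns that plant receptors recognise, but they do not inject effector proteins. A leaf that receives them therefore mounts pattern-triggered immunity without the effector-driven changes of disease. No array of the series is labelled as mock-infiltrated or untreated, so which genes respond to hrcC itself was not measured. CBP60g and CBP60h (also called SARD1) are transcription factors that promote the synthesis of salicylic acid, a defence hormone, and PAD4, a protein related to lipases, acts in the same signaling. The title of the study poses the question whether CBP60g and CBP60h have overlapping roles there.

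Time could not be separated from set by design, because every 24 h hrcC array belongs to set 3 and every 9 h array of these genotypes to sets 1 and 2. Infiltration was in the morning, so the hour of harvest differed too. The labels do not say whether one set differs from another in plants, day or array processing beyond being a biological replicate. The cbp60h array of set 3 is labelled 9 h while the other hrcC arrays of set 3 are labelled 24 h. Array medians over all probes lay between 3.94 and 4.15 at 24 h and between 3.90 and 4.27 at 9 h. All levels are log2 intensities as deposited, and differences are 24 h minus 9 h on that scale, where a step of 1 is a 2-fold change. No probe carries the name CBP60g, CBP60h or PAD4 in the annotation used, and the genotypes were not checked. None of the 17 listed markers of leaf mesophyll, guard cells, vascular tissue, epidermis and trichomes, and root was measured. The makeup of the leaf samples was therefore not tested. In such bulk samples, fewer cells of a type and less RNA per cell cannot be told apart.

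After hrcC, 4 of 181 genes were lower at 24 h than at 9 h, and no gene was higher, at an adjusted p under 0.05 in limma with genotype in the model. These were GRX480, AT1G10585, AT2G29500 and CHI, with differences between -1.29 and -0.73. They make up 2.21% of the genes tested. At an unadjusted p under 0.05 there were 38 genes (21%), 12 higher and 26 lower. With set as a replicate block over all 27 arrays, none of the 4 kept its call: the difference was -1.06 for GRX480 (adjusted p = 0.0532), -1.03 for CHI (adjusted p = 0.0532), -0.75 for AT1G10585 (adjusted p = 0.616) and -0.39 for AT2G29500 (adjusted p = 0.752). That fit called 1 gene (0.552%), AT2G23090, with a difference of -0.93 (adjusted p = 0.0123). It links set 3 to the other sets only through the Psm and cbp60h arrays, and so takes a set to shift every strain alike. The Psm and cbp60h differences of set 3 from sets 1 and 2 had a Pearson correlation of -0.08 over the 181 genes. The cbp60h difference rests on 1 array of set 3, so this correlation cannot show whether the shifts were alike. Every value with the block rests on the untested assumption that they were. The number called without set in the model also turned on single arrays. It was 0 without the pad4-1 24 h array and 0 without the triple mutant 24 h array (27 and 24 at an unadjusted p under 0.05 in limma), and 12 without the double mutant 24 h array. It was 7 without either Col-0 9 h array or the set 2 double mutant 9 h array, and 2 without any 1 of the pad4-1 or triple mutant 9 h arrays.

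**Figure D1:**
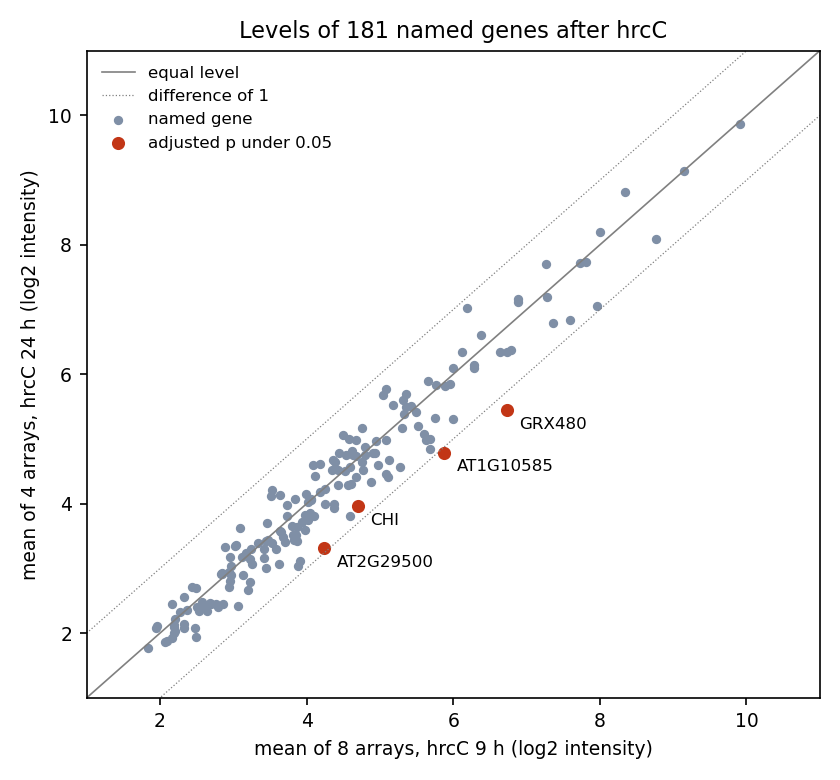
Mean log2 intensity of each of the 181 named genes after hrcC at 24 h (4 arrays, vertical axis) against 9 h (8 arrays, horizontal axis); the solid line marks equal levels and the dotted lines a difference of 1. Most genes lie close to the line of equal levels, and the 4 called genes, in red, lie below it.

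GRX480 (AT1G28480) encodes a glutaredoxin that binds TGA transcription factors and is induced by salicylic acid. In sets 1 and 2 at 9 h its level was 7.65 and 6.87 in the wild type, 7.21 and 7.12 in the double mutant, 7.23 and 7.76 in the pad4-1 mutant, and 4.67 and 5.31 in the triple mutant. At 24 h it was 6.59 in the wild type, 5.95 in the double mutant, 5.77 in the pad4-1 mutant and 3.46 in the triple mutant. Every 24 h array lay below both 9 h arrays of its own genotype. The ranges over all genotypes overlap, because the triple mutant at 9 h was already below the other 3 genotypes at 24 h. GRX480 was lower at 24 h by a fitted difference of -1.29 (SE 0.22, 95% interval -1.76 to -0.81, adjusted p = 0.0112 in limma). By genotype the difference was -0.67 in the wild type, -1.22 in the double mutant, -1.72 in the pad4-1 mutant and -1.53 in the triple mutant.

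CHI (AT2G43570) encodes a chitinase-like protein of the defence response. Its 9 h levels in sets 1 and 2 were 5.74 and 5.59 in the wild type, 4.34 and 4.66 in the double mutant, 4.55 and 4.32 in the pad4-1 mutant, and 4.17 and 4.25 in the triple mutant. The 24 h levels were 5.31 in the wild type, 3.98 in the double mutant, 3.50 in the pad4-1 mutant and 3.08 in the triple mutant. Again each 24 h array was below both 9 h arrays of its genotype, while Col-0 stood above the mutants at both times. The fitted difference was -0.73 (SE 0.16, 95% interval -1.08 to -0.39, adjusted p = 0.028 in limma), and it ran from -0.35 in Col-0 to -1.13 in the triple mutant. CHI lost its call after quantile normalization of the arrays.

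AT1G10585 encodes a basic helix-loop-helix transcription factor. At 9 h its levels in sets 1 and 2 were 4.87 and 5.81 in the wild type, 5.94 and 6.43 in the double mutant, 5.93 and 6.05 in the pad4-1 mutant, and 6.03 and 5.96 in the triple mutant. At 24 h they were 4.80 in the wild type, 5.65 in the double mutant, 4.52 in the pad4-1 mutant and 4.20 in the triple mutant. The Col-0 24 h array was only just below its set 1 array, and the widest steps were in pad4-1 (-1.47) and the triple mutant (-1.80). The fitted difference was -1.09 (SE 0.24, 95% interval -1.61 to -0.57, adjusted p = 0.028 in limma).

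AT2G29500 encodes a small heat shock protein of the cytosol. Its 9 h levels in sets 1 and 2 were 4.50 and 4.44 in the wild type, 4.57 and 4.15 in the double mutant, 4.18 and 4.11 in the pad4-1 mutant, and 4.24 and 3.70 in the triple mutant. Its 24 h levels were 3.28 in the wild type, 3.89 in the double mutant, 2.95 in the pad4-1 mutant and 3.12 in the triple mutant. Here the genotypes were nearly level at 9 h, and only the double mutant at 24 h reached into the 9 h range, above the lower of the triple mutant's 9 h arrays. The fitted difference was -0.93 (SE 0.17, 95% interval -1.30 to -0.55, adjusted p = 0.0132 in limma).

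**Figure D2:**
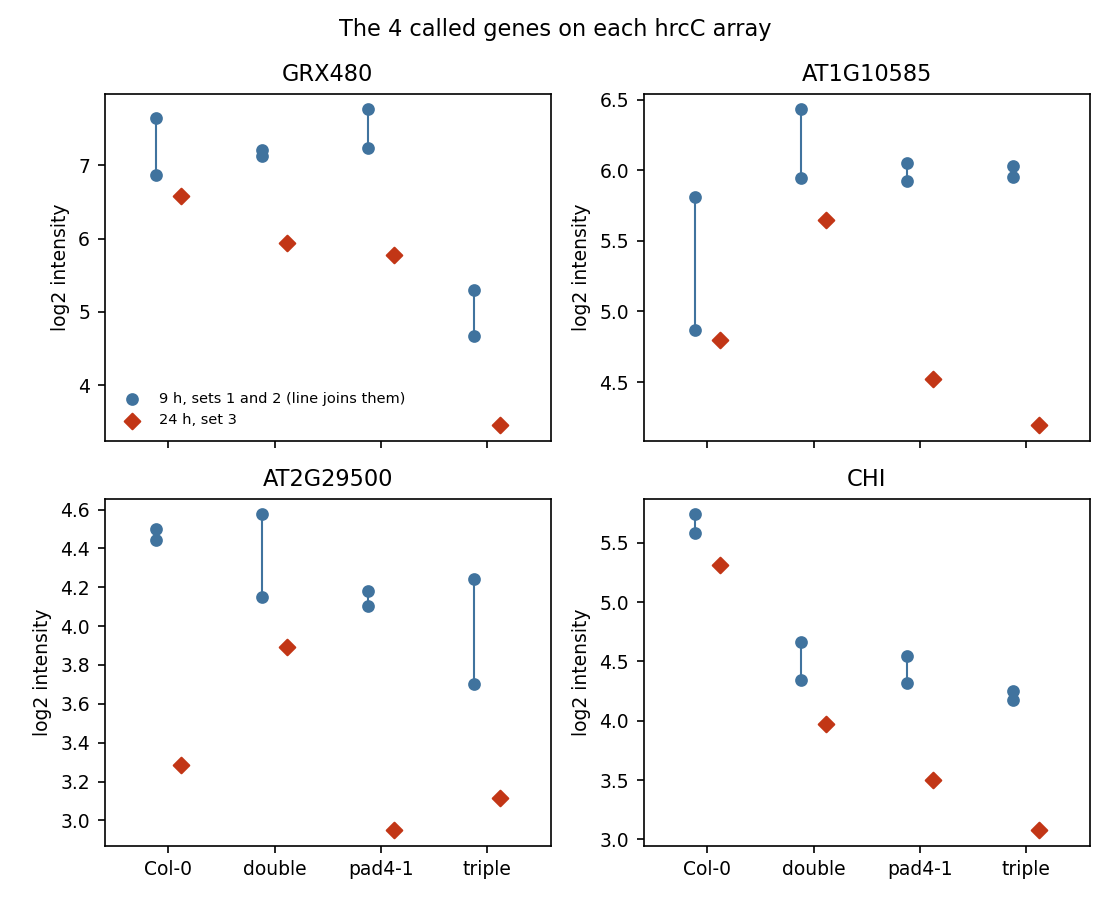
Log2 intensity of GRX480, AT1G10585, AT2G29500 and CHI on each hrcC array, by genotype; blue circles are the 9 h arrays of sets 1 and 2, joined by a line, and red diamonds the 24 h arrays of set 3. In every panel and genotype the 24 h array lies below both 9 h arrays.

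The other arrays of set 3 show how far a set can differ with strain and time held constant. The second strain, Psm, is P. syringae ES4326, which was applied to the same 4 genotypes and harvested at 24 h in all 3 sets. Between set 3 and sets 1 and 2 of Psm, AT1G10585 differed by -0.81 and AT2G29500 by -0.77, close to their differences after hrcC. GRX480 differed there by -0.27, and CHI by 0.21, in the other direction from hrcC. When the set difference under Psm was subtracted, GRX480 was at -1.02 (adjusted p = 0.108), CHI at -0.95 (adjusted p = 0.104), AT1G10585 at -0.27 (adjusted p = 0.836) and AT2G29500 at -0.16 (adjusted p = 0.887) in limma. In the cbp60h mutant, where set 3 was also labelled 9 h, the set 3 array minus sets 1 and 2 was -0.07 for GRX480, 0.62 for CHI, 1.55 for AT1G10585 and 0.38 for AT2G29500. Set and time cannot be told apart in these 4 differences.

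Across the 181 genes, set 3 minus sets 1 and 2 under Psm gave 1 call (0.552%), AT2G19310, a gene of the HSP20-like chaperone family, with a difference of -1.14 (adjusted p = 0.0199 in limma). It also gave 32 genes at an unadjusted p under 0.05, and 4 genes differed by more than 1 against 2 genes in the hrcC comparison. The count of genes differing by more than 0.5 was 25 under Psm and 33 under hrcC. Over all 181 genes the hrcC differences and the Psm set differences had a Pearson correlation of 0.31, and the hrcC and cbp60h set differences one of -0.14. The correlation of the Psm and cbp60h set differences was -0.08. These are descriptions across genes that share sets. Direct subtraction called 2 genes (1.1%) whose hrcC difference departed from the Psm set difference. One was AT2G23090, at -0.68 after hrcC against 0.24 under Psm (difference of differences -0.92, adjusted p = 0.0351 in limma). The other was Hsp70-2, a cytosolic chaperone gene, at 0.52 after hrcC against -0.64 under Psm (1.16, adjusted p = 0.0351 in limma). Both calls turned on single arrays, as each held in 10 of the 24 fits that left out 1 array.

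For AT2G23090 the values on single arrays were as follows. Its 9 h levels in sets 1 and 2 were 9.16 and 8.29 in the wild type, 9.05 and 9.25 in the double mutant, 8.69 and 8.82 in the pad4-1 mutant, and 8.44 and 8.46 in the triple mutant. At 24 h it stood at 7.70 in the wild type, 8.79 in the double mutant, 8.07 in the pad4-1 mutant and 7.81 in the triple mutant. All 4 genotypes were lower at 24 h than on both of their own 9 h arrays, and the pooled difference did not pass the test without set in the model (-0.68, adjusted p = 0.0629). In the cbp60h mutant the level was 7.72 and 7.66 at 9 h in sets 1 and 2 and 7.96 in set 3, below every 9 h array of the other genotypes.

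Hsp70-2 was at 5.37 and 4.71 in the wild type, 4.10 and 3.78 in the double mutant, 4.09 and 3.63 in the pad4-1 mutant, and 3.36 and 3.61 in the triple mutant at 9 h. At 24 h it was at 5.50 in the wild type, 4.35 in the double mutant, 4.56 in the pad4-1 mutant and 4.00 in the triple mutant. The 24 h array was above both 9 h arrays in each genotype, with a pooled difference of 0.52 that did not pass the test (adjusted p = 0.1003).

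The 4 called genes were not the only ones with a separation inside every genotype. In all, 15 genes (8.29%) had a 24 h array below both 9 h arrays of its genotype in all 4 genotypes, and 8 genes (4.42%) had it above both. Beside the 4 called genes and AT2G23090, the lower ones included AT1G65500 (-0.91, adjusted p = 0.0508), AT5G52760, a heavy-metal-associated domain gene (-0.78, adjusted p = 0.195), AT2G32150 (-0.70, adjusted p = 0.0963), AT2G30930 (-0.68, adjusted p = 0.0903) and ATG8E, which encodes a ubiquitin-like protein of autophagosomes (-0.55, adjusted p = 0.264). The higher ones included GTR1, a glucosinolate transporter gene (0.68, adjusted p = 0.0807), ATPMEPCRB, a pectin methylesterase gene (0.60, adjusted p = 0.0629), and CCS, the copper chaperone of superoxide dismutase (0.53, adjusted p = 0.0963). Under Psm, set 3 minus sets 1 and 2 was -1.03 for AT5G52760 and -0.91 for ATG8E, below their values after hrcC. It was 0.01 for AT1G65500 and -0.20 for ATPMEPCRB. With set as a replicate block, AT5G52760 and ATG8E each stood at 0.15, with the direction turned, AT2G32150 at -0.46 and GTR1 at 0.25.

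ATPMEPCRB (AT4G02330) was the only gene of 181 (0.552%) whose 24 h arrays all lay outside the 9 h range with genotypes pooled. At 9 h its levels ran from 3.03 to 3.70 over the 8 arrays. At 24 h they were 4.52 in the wild type, 3.80 in the double mutant, 4.00 in the pad4-1 mutant and 4.14 in the triple mutant. The cbp60h arrays at 9 h, outside the comparison, read 4.25, 4.30 and 4.49, within the 24 h range. With Psm at 24 h in set 3 it was far lower, at 2.36 in Col-0 and 1.63 in the double mutant. Its pooled difference of 0.60 (SE 0.16, 95% interval 0.26 to 0.94) missed the threshold, and the group-means fit of all arrays called it.

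AT1G65500 lay just outside the threshold and was uneven between genotypes. Its Col-0 levels were 8.19 and 7.93 at 9 h and 6.06 at 24 h, the largest step of any named gene in Col-0. In the mutants the difference was between -0.58 and -0.52. The 3 cbp60h arrays, all labelled 9 h, read 6.76, 6.79 and 5.67.

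Of the 124 genes on 9 lists of defence, metabolic and reference genes, 21 were measured, and 2 of these were called, GRX480 and CHI, both lower (all 181 genes: 4 called, all lower). Over all genes the median difference was -0.09. Among the 3 measured genes of salicylic acid synthesis and response, GRX480 was lower. WRKY53, a transcription factor gene of defence and senescence, differed by -0.03 (95% interval -0.46 to 0.41), and UGT76B1, whose enzyme glucosylates salicylic acid, by 0.20 (-0.63 to 1.02). UGT76B1 was at 0.39 with set as a replicate block. The median of the 3 without the block was -0.03.

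None of the 3 pattern-response genes passed the test (median 0.32), against 4 of all 181 genes. WRKY22, a transcription factor gene downstream of pattern receptors, differed by 0.07 (95% interval -0.27 to 0.40) and WRKY29, its companion, by 0.32 (-0.22 to 0.86). The pooled value of WRKY29 joined differences of -0.70 in Col-0 and 1.10 in the triple mutant, and leaving out 1 array moved it between 0.06 and 0.66. WRKY22 was at 0.34 with set as a replicate block. AT5G64120, a cell wall peroxidase gene, differed by 0.43 (-0.27 to 1.12), and leaving out 1 array moved it between 0.04 and 0.66. It stood at 9.44 in the triple mutant at 24 h against 7.58 and 8.10 at 9 h, and 6.90 to 7.25 in the other genotypes at 24 h. In set 3 at 24 h, the mean Psm minus hrcC difference of AT5G64120 over the 4 genotypes was -3.53.

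The 3 chitinase genes did not move together. CHI was lower, AT4G01700 differed by 0.64 (95% interval 0.20 to 1.09, adjusted p = 0.1003) and AT2G43620 by -0.05 (-0.72 to 0.62). AT4G01700 was called in the group-means fit of all arrays (adjusted p = 0.0376 in limma), and AT2G43620 was at 0.06 with set as a replicate block. AT2G43620 had a mean of 9.91 at 9 h and 9.87 at 24 h, with 24 h levels of 9.11 in the wild type, 9.55 in the double mutant, 9.88 in the pad4-1 mutant and 10.93 in the triple mutant. In set 3, Psm minus hrcC at 24 h was -5.19 for this gene.

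Genes of jasmonate, ethylene and antifungal defence held no call (3 measured, median -0.30), against 4 calls over all 181 genes. AT2G38870, a protease inhibitor gene, had a mean of 9.15 at both times when set was left out of the model (95% interval of the difference -0.48 to 0.47). Its difference was 0.68 with set as a replicate block (SE 0.34, adjusted p = 0.346), outside that interval. PDF1.2 (AT5G44420), a plant defensin gene that serves as a jasmonate and ethylene marker, had a wide interval, with a difference of -0.30 (-1.25 to 0.65). Its direction was not settled: the difference was 0.77 with set as a replicate block (adjusted p = 0.576), and it ran from -0.56 to 0.23 when 1 array was left out. Its Col-0 levels were 7.21 and 4.66 at 9 h and 4.05 at 24 h, so the 9 h arrays of Col-0 differed from each other more than the 24 h array did from the nearer of them. AT3G59930, a defensin-like gene, differed by -0.65 (adjusted p = 0.106), and set 3 was lower than sets 1 and 2 by a larger value under Psm as well (-1.36). This difference turned to 0.19 with set as a replicate block (adjusted p = 0.869).

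The chaperone genes BIP1 and Hsp70-2 had positive differences without a call when set was left out of the model. BIP1 (AT5G28540), a chaperone of the endoplasmic reticulum, differed by 0.84 (SE 0.28, 95% interval 0.25 to 1.44, adjusted p = 0.1004). The group-means fit of all arrays called it (adjusted p = 0.0388 in limma). With set as a replicate block it was at 0.53 (adjusted p = 0.401) and Hsp70-2 at 0.98 (adjusted p = 0.0574). Its levels at 9 h and 24 h were 6.57 and 6.92 against 7.90 in the wild type, 5.43 and 6.08 against 5.90 in the double mutant, 5.78 and 6.46 against 6.54 in the pad4-1 mutant, and 5.58 and 6.64 against 7.77 in the triple mutant. The steps were 1.15 in Col-0 and 1.66 in the triple mutant, and the double mutant at 24 h lay between its own 9 h arrays. BIP1 has a near-identical neighbour in the gene family, BIP2, and the share of its signal in the probe was not tested.

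The remaining list members were not called over the 12 arrays. COR47, a dehydrin gene of cold and abscisic acid responses, differed by 0.56 (adjusted p = 0.0963). It was at 0.17 with set as a replicate block (adjusted p = 0.816), and without the double mutant 24 h array it was called at 0.76 (adjusted p = 0.0274 in limma). CCL, a gene with clock-driven transcripts, was the only measured member of 14 clock and time-of-day genes and differed by -0.08 (95% interval -0.63 to 0.47), with -1.09 in Col-0 and 0.13 to 0.43 in the mutants, and -0.26 with set as a replicate block. In sulfate and tryptophan metabolism, the sulfite reductase gene SIR differed by 0.14, the ATP sulfurylase gene APS3 by -0.29 and AT2G04400, an indole-3-glycerol phosphate synthase gene, by 0.24. Both directions turned with set as a replicate block, to 0.01 for APS3 and -0.28 for AT2G04400, and leaving out 1 array moved AT2G04400 between 0.08 and 0.46. SIR ran from -0.09 to 0.40 when 1 array was left out and was at 0.10 with the block. Among reference genes, the elongation factor gene AT5G60390 differed by 0.47 (95% interval -0.05 to 1.00) and the tubulin gene TUB6 by 0.22 (-0.30 to 0.75). The replicate block for set put AT5G60390 at 0.03 (adjusted p = 0.941) and TUB6 at 0.24. Leaving out 1 array moved TUB6 between 0.03 and 0.46.

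**Figure D3:**
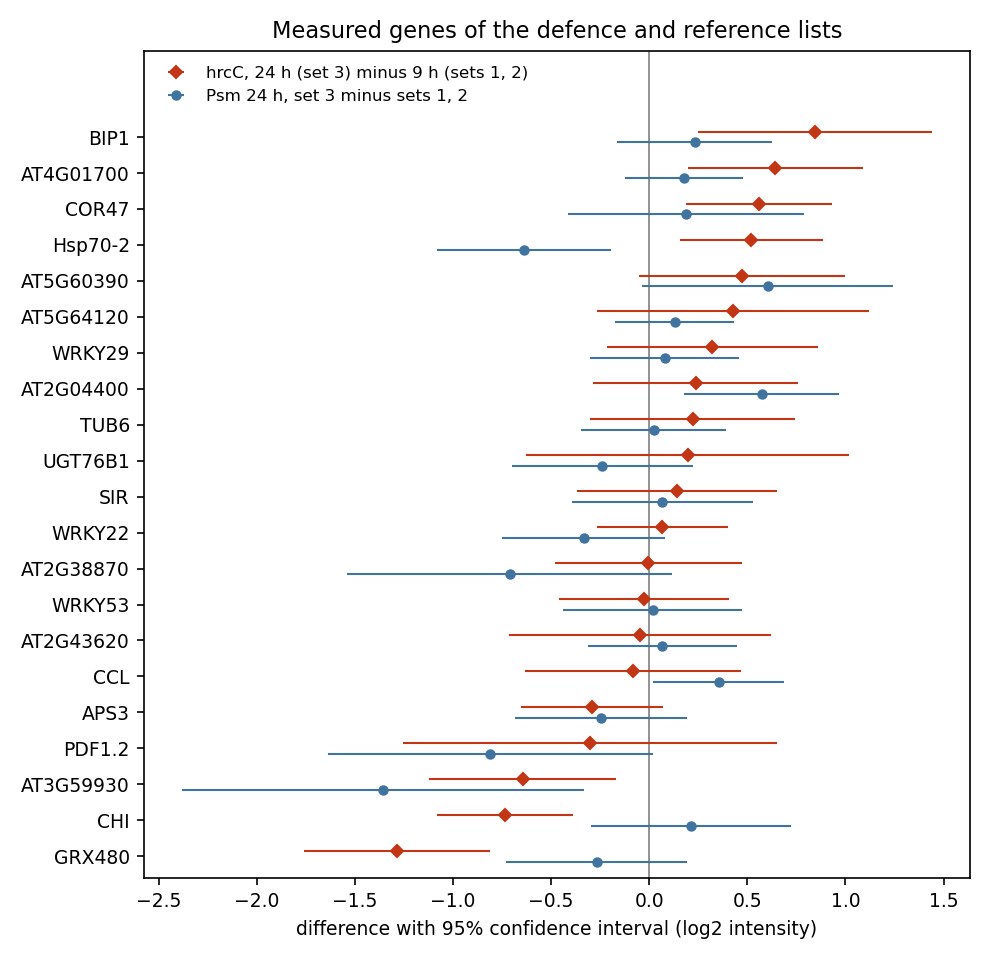
Difference with 95% confidence interval (log2 intensity) of the 21 measured list members, for hrcC 24 h minus 9 h (red diamonds, 12 arrays) and for Psm at 24 h, set 3 minus sets 1 and 2 (blue circles, 12 arrays). GRX480 and CHI lie lowest in the hrcC comparison, and Hsp70-2 and CHI are among the genes whose differences have opposite signs in the 2 contrasts.

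Gene families put together after values had been seen add description only. None of the 7 glycosyltransferase genes, 4 WRKY genes, 5 EF-hand calcium-binding genes, 6 genes of vesicle traffic and autophagy, 3 histone H3 genes or 3 vacuolar ATPase genes was called, and their median differences were -0.24, 0.02, -0.13, -0.03, -0.02 and 0.23. Over all 181 genes 2.21% were called, so a lack of calls in such small families says little about them. The histone H3 genes lay between -0.07 and 0.24 and the vacuolar ATPase genes between 0.07 and 0.29. Among 5 heat shock and folding genes, AT2G29500 was lower, while BIP1 and Hsp70-2 were the 2 members with positive differences in all 4 genotypes. The 3 heavy-metal-associated domain genes lay between -0.85 and -0.12 with no call. The 4 aspartyl protease genes ran from -0.81 for AT1G03220 to 0.69 for AT3G51330, which were at -1.47 and 0.18 with set as a replicate block.

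The 95% intervals bound the difference between these arrays, in which time and set differ together. Without the block they hold no spread between sets at 24 h. The 95% interval of the difference lay within 1 on either side of 0 for 148 of 181 genes and within 2 for 181 of 181, with a median half-width of 0.41. With set as a replicate block these counts were 134 and 179, with a median half-width of 0.51. Genes with narrow intervals close to 0 included AT4G24290 at -0.09 (95% interval -0.38 to 0.20), AT5G23340 at 0.07 (-0.22 to 0.36), UGT85A2, a glucosyltransferase gene, at -0.04 (-0.34 to 0.25), and AT5G41950 at 0.07 (-0.24 to 0.37). With the block UGT85A2 was at -0.30 and AT5G41950 at 0.16. AT4G24290, which encodes a protein with a membrane-attack-complex domain, differed by between -0.10 and -0.08 in each of the 4 genotypes.

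The distance between arrays of 1 genotype puts the comparison on a scale. The SD over the 181 genes of the difference between a 24 h and a 9 h hrcC array ran from 0.393 to 0.785, with a median of 0.580 over 8 pairs. Between the set 1 and set 2 arrays at 9 h it ran from 0.444 to 0.702, with a median of 0.481 over 4 pairs. The ranges overlap. For Psm the SD between set 3 and the other sets had a median of 0.515, and between Psm and hrcC at 24 h within set 3 it was 1.25 to 1.49, outside the range of all hrcC pairs. In that last contrast 52 genes differed by more than 1, against 2 genes between 24 h and 9 h of hrcC. The cbp60h arrays of sets 1 and 2 were the closest pair, with an SD of 0.234 and a correlation of 0.991, while set 3 of cbp60h lay at 0.508 and 0.549 from them. No value of the pooled hrcC comparison used these 3 arrays except the fits over all 27.

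**Figure D4:**
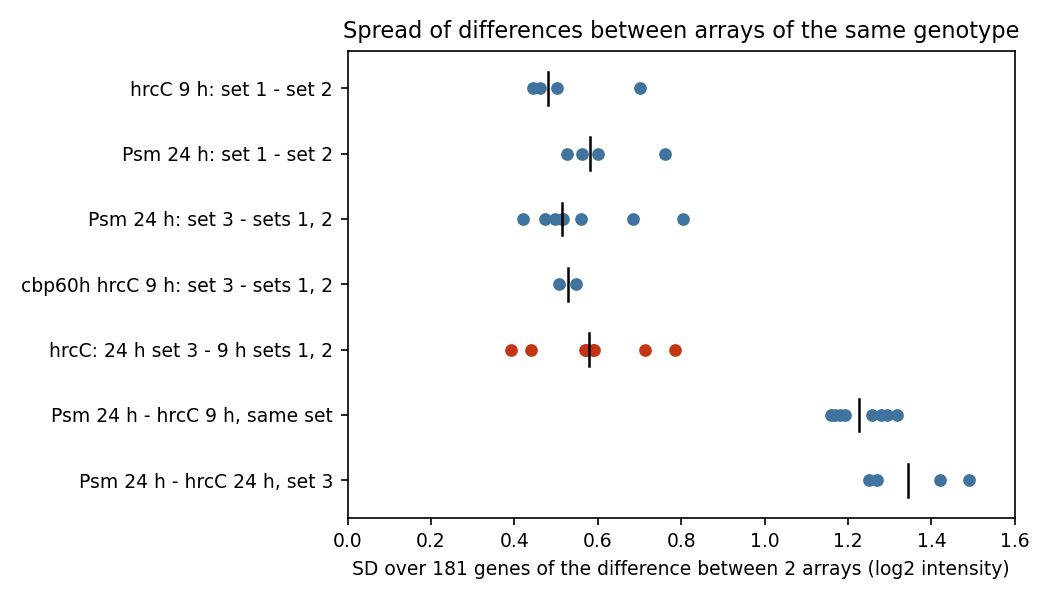
SD over 181 genes of the difference between 2 arrays of the same genotype (log2 intensity), one point per pair, with the median of each kind of pair as a black bar. The 24 h against 9 h hrcC pairs, in red (0.393 to 0.785), overlap the pairs of 1 strain and time and lie below the pairs of Psm against hrcC.

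The genotypes differed in how far the 24 h array lay from its 9 h arrays. In Col-0 22 genes differed by more than 1 (6 higher, 16 lower), in pad4-1 12 (1 higher, 11 lower) and in the triple mutant 15 (4 higher, 11 lower). In the double mutant a single gene did, GRX480. The SD of the differences was 0.590 in the wild type, 0.333 in the double mutant, 0.543 in the pad4-1 mutant and 0.607 in the triple mutant. Each genotype has 1 array at 24 h, so its own spread there is unknown. Between the set 1 and set 2 arrays at 9 h the SD was 0.702 in Col-0 and 0.502 in the double mutant. It was 0.460 in pad4-1 and 0.444 in the triple mutant. Whether the genotypes differ beyond this spread between replicate arrays was not tested. Between genotypes, the correlation of the differences over 181 genes ran from 0.04 (double mutant with Col-0) to 0.56 (triple mutant with pad4-1), as a description across genes of arrays that share sets. The same direction was seen in all 4 genotypes for 19 genes that were higher and 31 that were lower in value after hrcC. Under Psm, where time did not differ, the set difference had the same direction in all 4 genotypes for 27 higher and 46 lower genes. The Psm counts thus exceeded those after hrcC.

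Tests of genotype by time gave no call for any mutant against Col-0 in limma over all 27 arrays (0% each), with 12 genes for the double mutant, 11 for pad4-1 and 20 for the triple mutant at an unadjusted p under 0.05. The lone 24 h array of each genotype was taken to vary like the other groups, and the median half-width of the 95% interval was 1.15. With set as a replicate block, 1 gene (0.552%) was called in the triple mutant, AT1G62660, a vacuolar invertase gene. It was at 3.91 and 4.42 at 9 h and 5.65 at 24 h in Col-0, and at 4.99 and 4.84 against 4.39 in the triple mutant. The change in the triple mutant minus that in Col-0 was -2.01 (adjusted p = 0.119 in limma without the block, 0.0481 with it). The same contrast of AT1G62660 was not called in the other mutants. It was -1.99 in pad4-1 (adjusted p = 0.156 without and 0.0534 with the block in limma) and -1.48 in the double mutant (adjusted p = 0.679). Each of these contrasts subtracts the same Col-0 change, with its 1 array at 24 h, so they are not independent. Without the set 2 Col-0 array at 9 h, AT1G62660 and WRKY29 were called in the triple mutant without the block, and without the set 1 Col-0 array AT5G64120 was.

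**Figure D5:**
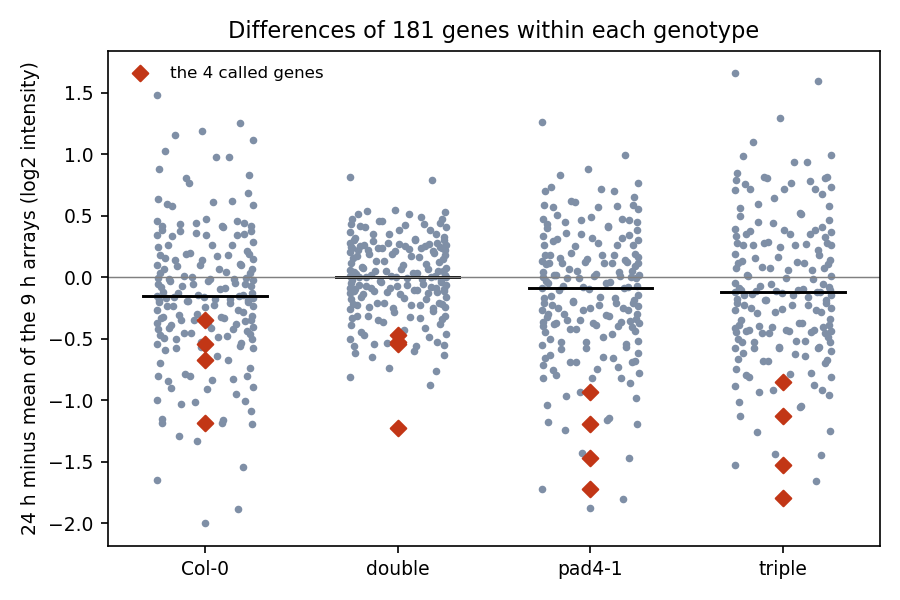
Difference of each of the 181 named genes between the 24 h array and the mean of the pair of 9 h arrays (log2 intensity) within each genotype; black bars are medians, red diamonds the 4 called genes, and horizontal scatter has no meaning. The spread is narrowest in the double mutant (SD 0.333), and the 4 called genes lie below 0 in every genotype.

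The direction of the called genes against Psm can be read within set 3, where time and set are the same. Psm minus hrcC at 24 h, over 1 array per genotype and strain, was 2.54 for GRX480, 3.43 for CHI, 2.38 for AT2G29500 and 0.87 for AT1G10585. In the double mutant AT1G10585 went the other way, at 5.16 with Psm against 5.65 with hrcC. It was 5.95 against 4.80 in the wild type, 6.34 against 4.52 in the pad4-1 mutant and 5.18 against 4.20 in the triple mutant. The GRX480 level with Psm was 8.28 in the wild type, 8.39 in the double mutant, 8.52 in the pad4-1 mutant and 6.73 in the triple mutant. The corresponding CHI levels were 8.19, 6.83, 8.35 and 6.21. All 8 values lie above every hrcC level of the same gene in the same genotype. This contrast shares its 24 h hrcC arrays with the comparison of times. In sets 1 and 2, Psm at 24 h minus hrcC at 9 h was 1.52 for GRX480 and 2.48 for CHI.

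When all 576 probes were fitted and adjusted over, 11 were called (1.91%), 4 higher and 7 lower, with 124 at an unadjusted p under 0.05. The 4 named genes were among them, and the other called probes are unnamed here.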

How the data were processed

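Total RNA from leaves was amplified, labelled with 1 dye and hybridised to 27 arrays, per the labels' protocols. The log2 values were used as deposited by the authors in the value table (0.66 to 11.4). Base 2 was read from the values; for normalization and background correction the sources used here give no statement. Without signal over background, precision is limited by the number of arrays. Of the values, 39.6% equal that of another probe on the same array exactly, with no tolerance, at the digits deposited. The platform annotation, which can be old, paired 181 probes with 1 gene, 0 with several and left 395 unnamed; 180 names matched the TAIR10.1 gene table by ID and 181 by ID, locus or symbol.

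The 12 hrcC arrays of 4 genotypes were fitted in limma 3.58.1 (R 4.3.3; lmFit, eBayes) with a term for each genotype and 1 for 24 h in set 3, leaving 7 residual degrees of freedom. Psm set differences used the same model. Genotype by time and the set block used all 27 arrays; the difference of hrcC and Psm differences used 24. All tests were two-sided. P-values were adjusted over 181 genes by the Benjamini-Hochberg method, with calls at an adjusted p under 0.05. The fit was tested on simulated data with independent noise on each array and no shift shared within a set. That simulation cannot speak to calls where time and set differ together. The sets are called biological replicates in the series' design text. Nothing else says how separate they were, so p-values measure the spread between these arrays. The model of the 12 hrcC arrays has no set term, and its 24 h arrays come from set 3 alone. No spread between sets at 24 h therefore enters its SEs, intervals or p-values.

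The members and lists were chosen with earlier results of these data known. Genes were to be named where called and with arrays that do not overlap between the groups; no gene met both, so the 4 called genes and all others outside the lists were chosen after their values were seen. Roles of genes are general background. Families planned by product description were replaced by hand-written ones, because the gene table holds no descriptions. Alternatives covered the set block, centring, quantile normalization, a mean of 3 as a filter on dim genes, and left-out arrays and genotypes; the genotypes left out whole and the genotype by time alternatives were chosen after seeing the data.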

Additional observations from a re-analysis of the deposited data

Results flagged for a closer look

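For 2 genes the difference between set 3 and sets 1 and 2 was not the same under hrcC, where time also differs, as under Psm, where it does not, by a test of the difference itself in limma. AT2G23090 had a hrcC difference minus Psm set difference of -0.92 (adjusted p = 0.0351): hrcC was at -0.68, lower in 4 of 4 genotypes, and Psm at 0.24. Hsp70-2 had a value of 1.16 (adjusted p = 0.0351): hrcC was at 0.52, higher in 4 of 4 genotypes, and Psm at -0.64. Neither was called when all 576 probes were adjusted over, and AT2G23090 was not called after quantile normalization.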

How the results depend on the processing

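The 4 genes called lower after hrcC were lower in 26 of 26 settings each. They were picked for being lower on these same arrays, which every setting refits, so that direction is no separate support. GRX480 was called in 19 of these settings, AT2G29500 in 18, AT1G10585 in 13 and CHI in 12. The count of called genes, 4 with genotype in the model, was 1 with set as a replicate block and 7 (3 higher, 4 lower) in a group-means fit of all arrays, where GRX480 was the only 1 of the 4 that kept its call. It was 2 with only set 1 at 9 h. It was 0 with only set 2 at 9 h and 0 with no genotype term (26 and 27 at an unadjusted p under 0.05 in limma). Leaving out a genotype whole gave 8 without Col-0, 7 without the double mutant, and 0 without pad4-1 or without the triple mutant (28 and 21 at an unadjusted p under 0.05). Leaving out 1 array at a time gave 0 to 12. The cause was not tested. Median centring gave 5, leaving out dim genes 5, quantile normalization 4, all probes 4, and a trended robust fit 4.

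For Psm, set 3 minus sets 1 and 2, the count of 1 became 0 after quantile normalization (31 at an unadjusted p under 0.05 in limma) and 0 to 2 without 1 array. It was 0 without any 1 of the 3 Col-0 arrays, the set 1 or set 3 pad4-1 array, or the set 3 double or triple mutant array, and 2 without the set 2 double mutant array. For the hrcC difference minus the Psm set difference, the count of 2 became 1 after quantile normalization, 0 over all probes (17 at an unadjusted p under 0.05) and 0 to 5 without 1 array. The highest value came without the set 1 Col-0 hrcC array or the set 1 triple mutant Psm array. Genotype by time in the triple mutant gave 1 call with the replicate block, and its count moved when some single 9 h arrays were left out. The double mutant and pad4-1 stayed at 0 in limma with the block, median centring, quantile normalization and all probes. Only 9 h arrays were left out here. The lone 24 h array of each genotype cannot be, so dependence on it was not tested. Median centring moved the median genotype by time difference of pad4-1 from 0.01 to -0.15. With 1 array per genotype at 24 h and no measure of background signal in the table, small differences and dim genes were not resolved.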
